A study of Mus musculus with 6 samples.

Results

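The SR and hnRNP splicing factors of primary mouse adult fibroblasts (MAFs) were compared between control and senescent cells. Members were defined by a rule on gene names, chosen with earlier results of these data known. It took protein-coding genes called *Srsf* with a number, all those whose names begin with *Hnrnp*, and *Tra2a*, *Tra2b*, *Ptbp1*, *Ptbp2* and *Ptbp3*. The rule gave 36 of the 43346 genes in the table of counts, namely 11 SR genes, 2 Tra2 genes, 20 hnRNP genes and 3 Ptbp genes. The cells were wild type, taken from ear tissue of adult C57BL6/J females and kept at low oxygen, and 3 control and 3 senescent samples were sequenced. Senescent MAFs were irradiated with 20 Gy and then cultured for 21 days, and control MAFs were sham irradiated. Both groups were treated with 100 nM dexamethasone, which synchronizes the circadian clock of cultured cells, for 2 hours and were collected 12 hours later. No source gives the age of the mice, or says whether the replicates were separate cultures or animals, so p-values measure the spread between these samples alone.

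SR proteins carry an RNA recognition motif and a tail rich in arginine and serine, and they bind enhancer sequences in exons and recruit the spliceosome. The hnRNP proteins coat nascent transcripts, and many of them, like the polypyrimidine tract binding (Ptbp) proteins, promote skipping of the exons they bind near. Many genes of both families limit their own output by splicing in exons that carry a premature stop codon, which sends the transcript to nonsense-mediated decay. Falling levels of several of these factors in aged and senescent cells are a known theme of the field.

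Most members were lower in senescent MAFs. Of the 36 genes, all of which passed the filter on low counts, 29 passed the test as lower in senescent cells (quasi-likelihood test of edgeR, p adjusted by Benjamini-Hochberg over all genes tested, limit 0.05), where 34.1% of all 17589 genes tested were lower. Only *Ptbp2* and *Srsf12* were higher, where 36.2% of all genes tested were higher. Members are abundant, and among the 8491 genes whose mean count was 1000 or more, 39.5% were lower and 33.9% were higher. The median log2 fold change of the members was -0.49, and that of all genes tested was 0.01. The decreases were of moderate size. With the limit in the methods of the study, a change over 2-fold with an unadjusted p under 0.05, *Hnrnpa1* was the only lower member (12.3% of all genes tested) and *Srsf12* the only higher one (17.8%). Their unadjusted p-values were 6.07e-07 and 3.69e-05 (edgeR), so that a stricter limit on p can drop *Srsf12*. In 30 of the 36 genes the 3 control and the 3 senescent values did not overlap, against 75.3% of all genes tested. In bulk RNA, less of a transcript per cell and fewer of the cells that carry it cannot be told apart. Levels are also relative to the other RNA of a library. A lower level need not mean fewer copies per cell if total RNA per cell differed, which was not tested.

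**Figure D1:**
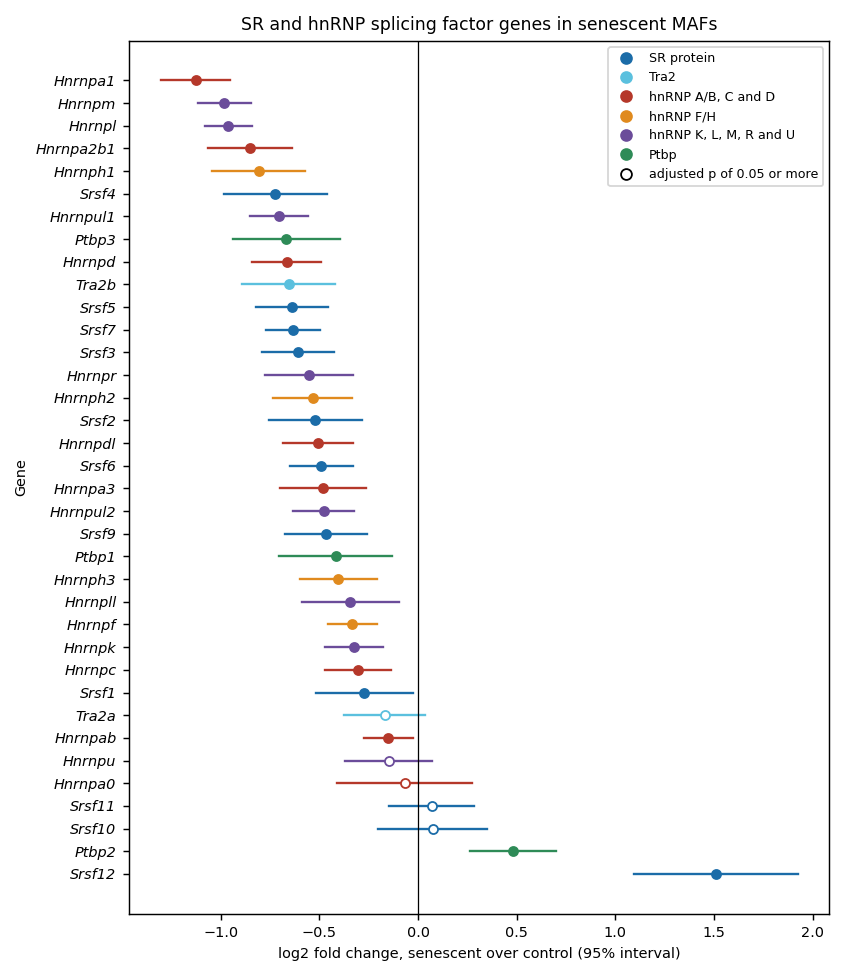
Log2 fold change of each of the 36 genes in senescent over control MAFs (x axis), with its 95% interval, from edgeR's quasi-likelihood fit over 3 samples per group. Colours give the family, and open points have an adjusted p of 0.05 or more. All 20 hnRNP genes lie left of 0 (*Hnrnpa0* turned to 0.0098 when libraries were scaled by their totals), and only *Ptbp2* and *Srsf12* lie right of 0 with intervals that do not reach it.

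Total counts lay between 50288454 and 82229553 per library. Senescent replicate 3 stood apart from the other senescent libraries: the squared differences of its gene counts had a median of 14.5 and 19.9 times the value that counting noise gives, against 2.14 times between senescent replicates 1 and 2. The defining markers of fibroblasts were all present, with a summed level of 17810 to 19900.4 CPM (counts per 1000000 reads, scaled by the TMM method of edgeR) in control and 6709 to 8011 CPM in senescent libraries. Of these 9 genes, 5 were lower, among them the collagen genes *Col1a1*, *Col1a2* and *Col3a1* that make up most of the control sum, and 3 were higher (*Dcn*, *Thy1* and *Lum*, with log2 fold changes of 3.50, 1.47 and 0.85). Of 15 proliferation markers, 14 were lower in senescent cells, such as *Ccnb1* and *Cdk1* (log2 fold changes of -5.18 and -3.60), and *Myc* was higher (0.78). The sum of the list was 2712 to 2770.1 CPM in control and 321 to 328 CPM in senescent libraries. Their part in the results on splicing factors was not tested. Chondrocyte markers summed to 4705 to 5233 CPM in control and 335 to 418 CPM in senescent libraries, with all 5 genes lower. Sums of the other marker lists were small in both groups: 8.24 to 9.01 and 18.2 to 21.1 CPM for macrophages (5 of 5 tested genes higher), 2.53 to 2.93 and 8.03 to 8.45 CPM for endothelium (5 of 5 higher), 15.9 to 16.6 and 7.77 to 7.90 CPM for keratinocytes (1 of 3 lower), 15.2 to 20.8 and 14.2 to 26.6 CPM for skeletal muscle (0 of 1 called), 34.1 to 35.9 and 20.96 to 22.3 CPM for Schwann cells and melanocytes (3 of 5 lower, 1 higher), and 36.5 to 38.5 and 23.5 to 33.3 CPM for neurons (1 of 4 lower, 3 higher). The neuronal markers *Snap25* and *Rbfox3* were at 0 in all control libraries, and no marker was at 0 in all 6 libraries. The part of other cell types in the results was not tested.

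Because the study is about BMAL1, which binds the E-box CACGTG, and about AP-1, the promoters of the members were searched for these motifs. RefSeq promoters of build GRCm38.p6 (the bases from 250 before to 50 after a start site, 300 in all) were found for 33 of the 36 genes, as 45 start sites. Entries for *Ptbp3*, *Hnrnpll* and *Hnrnpul2* were not found. On both strands, an E-box was present in 6 of the 45 member promoters (13.3%) and in 7.15% of all 32851 promoters. The AP-1 motif (TGACTCA or TGAGTCA) was present in 1 member promoter (2.22%) and in 5.20% of all. The E2F motif (TTTCGCG or TTTGGCG) was present in 3 member promoters (6.67%) and in 2.37% of all, and the NF-Y motif CCAAT in 23 (51.1%) and in 37.4% of all. Start sites of 1 gene can share bases, and a match describes letters and not binding. The median GC content was 67.3% in member promoters and 52.7% in all promoters.

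The E-box matches are shown with their surroundings, 30 bases on the strand of the gene with the E-box in capitals, because they are the letters that BMAL1 recognizes. All 6 genes were lower in senescent cells, as were 29 of all 36 members and 34.1% of all genes tested. They lie at chr2:75659229-75659258 (plus strand, 18 bases before the start), chr5:99978953-99978982 (minus strand, 32 before), chr6:117907713-117907742 (plus strand, 79 before), chr10:79854375-79854404 (plus strand, 45 before), chr17:33685428-33685457 (minus strand, 14 after) and chrX:134601182-134601211 (plus strand, 16 after), in this order. No other searched motif lies in these windows. *Hnrnpf* has further listed start sites, whose promoters hold no E-box.
*Hnrnpa3*: cggatagcacatCACGTGgtgactggcccc
*Hnrnpd*: gcgctccggagcCACGTGaccgggacgcgc
*Hnrnpf*: cgagcgggcgctCACGTGgcccgaggcgcc
*Ptbp1*: ctcagatggtatCACGTGcgtctactcatt
*Hnrnpm*: gtcgttcggggtCACGTGagcgcgcaggcg
*Hnrnph2*: ccgagagttgctCACGTGaccgagatctca

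The E2F matches are shown in the same way. E2F factors drive genes of proliferating cells, and their part in the values of these genes was not tested. They lie at chr11:88047300-88047329 (plus strand, 62 bases before the start), chr11:116853308-116853337 (minus strand, 232 before) and chr6:49264174-49264203 (minus strand, 140 before), in this order. *Srsf1* (a call near the threshold) and *Srsf2* were lower, as were 29 of all 36 members and 34.1% of all genes tested. *Tra2a* was not called.
*Srsf1*: ggcgcctttccCGCCAAAggccgttaccac
*Srsf2*: acggtagagcaTTTGGCGggctttctaact
*Tra2a*: aaccgacccaaCGCCAAAcagcaagctctt

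The 250 bases before the start sites of the most abundant hnRNP A genes are given whole, because *Hnrnpa1* had the largest decrease of the members and its promoter is the only one with an AP-1 match. The stretches lie at chr15:103240147-103240396 (plus strand) and chr6:51469895-51470144 (minus strand) of GRCm38.p6, outside annotated exons. *Hnrnpa2b1* has another listed start site, whose stretch is not printed. It lies at chr6:51469846-51470095, has 49 bases in annotated exons and also holds an NF-Y match. Capitals mark the AP-1 motif (TGACTCA) and the NF-Y motif (CCAAT or its reverse, ATTGG). *Hnrnpa1* has 4 NF-Y matches and 1 AP-1 match, and *Hnrnpa2b1* has 1 NF-Y match.
*Hnrnpa1*: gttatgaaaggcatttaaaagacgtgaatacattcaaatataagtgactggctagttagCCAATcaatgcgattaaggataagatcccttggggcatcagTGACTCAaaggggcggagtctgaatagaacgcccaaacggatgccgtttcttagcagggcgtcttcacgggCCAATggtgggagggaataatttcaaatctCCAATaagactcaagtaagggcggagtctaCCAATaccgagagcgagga
*Hnrnpa2b1*: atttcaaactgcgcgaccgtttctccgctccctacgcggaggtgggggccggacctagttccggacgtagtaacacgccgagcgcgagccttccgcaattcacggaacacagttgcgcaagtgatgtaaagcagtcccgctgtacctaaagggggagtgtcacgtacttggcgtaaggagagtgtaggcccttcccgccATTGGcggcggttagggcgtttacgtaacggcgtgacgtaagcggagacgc

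The summed level of the 36 genes was 8478, 8233 and 8212 CPM in control replicates 1, 2 and 3, and 5509, 5571 and 6430.2 CPM in senescent replicates 1, 2 and 3. All senescent libraries were below all control libraries, and senescent replicate 3 was the highest of its group. The mean of the sum fell from 8308 ± 148 in control to 5837 ± 515 in senescent cells (CPM, SD, n = 3), which is 29.7% lower. By family, the mean of the sum was 24.2% lower for SR genes, 24.6% for Tra2 genes, 34.7% for hnRNP A/B, C and D genes, 35.3% for hnRNP F/H genes, 27.8% for the other hnRNP genes and 24.2% for Ptbp genes. Members took 0.797% to 0.830% of all counts in control libraries and 0.568% to 0.660% in senescent libraries.

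**Figure D2:**
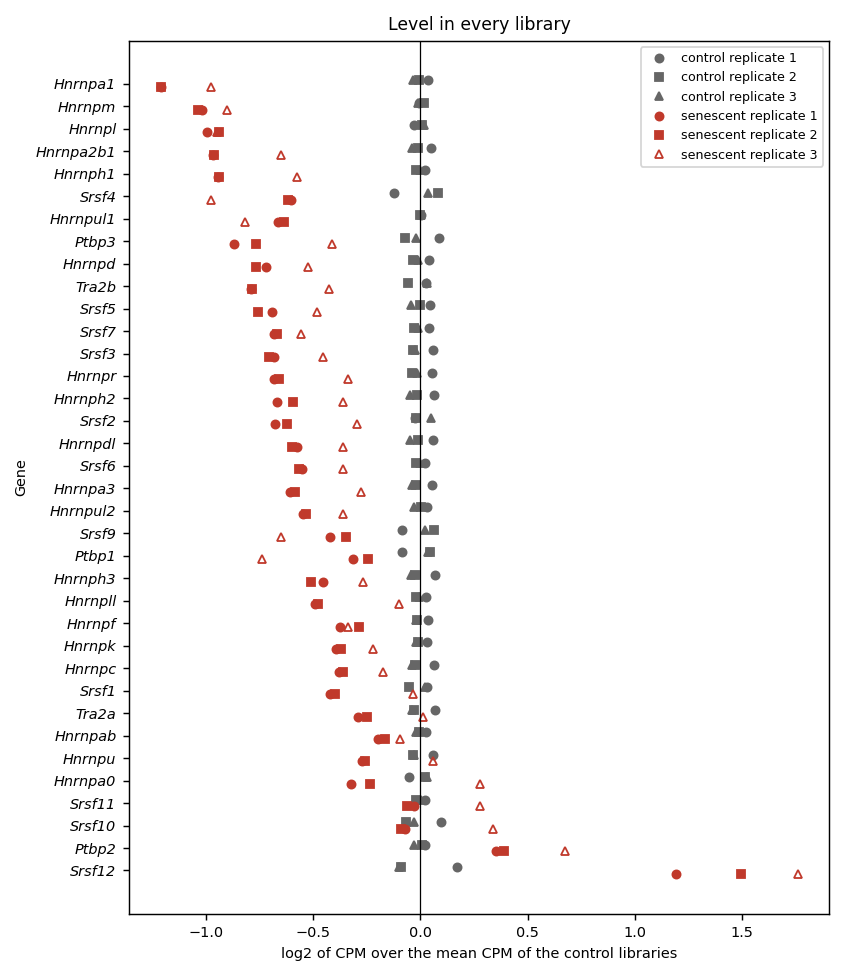
Level of each gene in every library, as the log2 of its CPM over the mean of the 3 control libraries (x axis). Grey symbols are control and red symbols senescent libraries, with senescent replicate 3 as open triangles. Senescent replicates 1 and 2 lie close together, and senescent replicate 3 is the highest senescent library in 30 genes and the lowest in 4.

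Senescent replicate 3 was above the mean of senescent replicates 1 and 2 in 31 of the 36 genes and below it in 5. The genes below it were *Ptbp1*, *Srsf4*, *Srsf9*, *Hnrnpul1* and *Hnrnpf*. Their transcripts have a GC content (in the longest annotated transcript) between 48.9% and 54.0%, and the median of the members is 43.3%. Across the 36 genes, the difference between senescent replicate 3 and the other senescent libraries went with GC content at a Pearson correlation of -0.57 and a Spearman correlation of -0.53. Across all 14522 protein-coding genes tested, these were -0.73 and -0.78. The points share the same 3 libraries, and the correlations are descriptions across genes. *Hnrnpa0*, with a GC content of 55.4% and the largest excess in senescent replicate 3 (0.55 on the log2 scale), lay far from this relation. Without senescent replicate 3, 32 members were lower (37.4% of all genes tested) and the same number, 2, were higher, and the median log2 fold change of the members was -0.57.

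**Figure D3:**
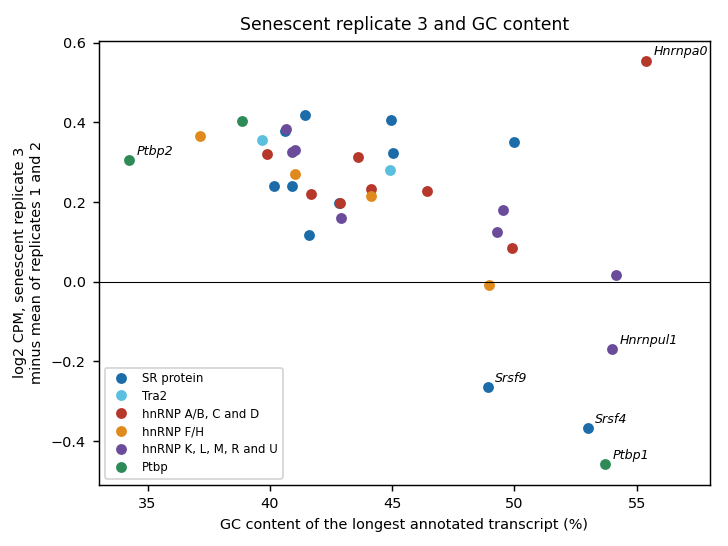
Difference in log2 CPM between senescent replicate 3 and the mean of senescent replicates 1 and 2 (y axis) against the GC content of the longest annotated transcript (x axis) for the 36 genes, coloured by family. Most genes of low GC content lie above 0, and *Ptbp1*, *Srsf4*, *Srsf9* and *Hnrnpul1* lie below it.

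Among the hnRNP A/B, C and D genes, 7 of 8 were lower (34.1% of all genes tested) and *Hnrnpa0* was not called. *Hnrnpa1* (ENSMUSG00000046434, chr15:103240432-103244955 of mm10), which encodes a general repressor of exon inclusion, was at 529.7, 515 and 505 CPM in control and 224, 223 and 262 CPM in senescent replicates 1, 2 and 3. Every senescent value was below every control value by a wide margin. The log2 fold change was -1.13 ± 0.08 (SE), a 2.18-fold decrease (adjusted p = 5.96e-06, edgeR). *Hnrnpa1* has many processed pseudogenes, and reads shared with these copies could have been assigned differently. *Hnrnpa2b1* (ENSMUSG00000004980, chr6:51460434-51469894), whose protein also sorts RNA for transport, was at 923, 886 and 868 CPM in control and 456, 458 and 569 CPM in senescent cells. It was the member with the highest CPM in control libraries. Its log2 fold change was -0.85 ± 0.09 (SE) (adjusted p = 8.67e-05, edgeR). *Hnrnpa3*, a close relative of both, had a smaller log2 fold change of -0.48.

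*Hnrnpd*, which encodes the AU-rich element binding protein AUF1, and its neighbour and paralog *Hnrnpdl* on chromosome 5 had log2 fold changes of -0.67 and -0.51. *Hnrnpd* was at 112, 107 and 108 CPM in control and 66.2, 64.1 and 76.0 CPM in senescent cells, with no overlap. *Hnrnpc*, whose protein binds uridine tracts, changed less, with a log2 fold change of -0.30 (adjusted p = 0.0059, edgeR). *Hnrnpab* had the smallest called decrease, from 351, 344 and 339.7 CPM to 301, 308 and 323 CPM, a log2 fold change of -0.15 ± 0.05 (SE; adjusted p = 0.0337, edgeR). Its call was lost under most alternatives, for example when libraries were scaled by their totals (adjusted p = 0.255, edgeR). *Hnrnpa0* was at 103, 108 and 109 CPM in control and 85.3, 90.6 and 129 CPM in senescent cells. Here senescent replicate 3 was above and replicates 1 and 2 were below all controls. The 95% interval of its log2 fold change, from -0.41 to 0.27, holds 0, and without senescent replicate 3 the value was -0.27 (adjusted p = 2.74e-05, edgeR). With all libraries the value was -0.07, so the sign was the same without senescent replicate 3. The sign turned under 4 settings, given with the alternatives.

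All 4 hnRNP F/H genes, whose proteins bind runs of guanines, were lower (34.1% of all genes tested). *Hnrnph1* (ENSMUSG00000007850, chr11:50376990-50386528) was at 444, 432 and 437 CPM in control and 228, 228 and 294 CPM in senescent cells. Its log2 fold change was -0.81 ± 0.10 (SE) (adjusted p = 0.000207, edgeR). *Hnrnph2*, on chromosome X, *Hnrnph3* and *Hnrnpf* had log2 fold changes of -0.53, -0.40 and -0.33, all without overlap between groups. Of all genes tested, 75.3% had no such overlap. *Hnrnpf* was among the members least touched by the difference between senescent libraries, at 127, 135 and 130.5 CPM against 169, 163 and 163 CPM in control.

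Of the 8 other hnRNP genes, 7 were lower (34.1% of all genes tested). *Hnrnpm* (ENSMUSG00000059208, chr17:33646233-33686860), which encodes a regulator of alternative exons in mesenchymal cells, was at 222, 226 and 222 CPM in control and 110.5, 109 and 119.8 CPM in senescent cells. *Hnrnpl* (ENSMUSG00000015165, chr7:28808541-28822266), whose protein binds CA repeats, was at 311, 319.5 and 322 CPM in control and 159, 166 and 164 CPM in senescent cells. In both genes the 6 values formed separate groups of narrow spread. The log2 fold changes were -0.98 and -0.96, with standard errors of 0.06 and 0.05 (adjusted p = 2.64e-06 and 1.42e-06, edgeR). Without senescent replicate 3 the value of *Hnrnpm* was -1.02, past the 2-fold limit.

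*Hnrnpul1* was at 184, 184 and 184 CPM in control and 116, 119 and 104 CPM in senescent cells, with a log2 fold change of -0.70. Its paralogs *Hnrnpul2* and *Hnrnpu* had smaller values of -0.48 and -0.15. *Hnrnpu*, whose protein also binds chromatin (scaffold attachment factor A), was at 529, 496 and 496 CPM in control and 419.5, 424 and 528 CPM in senescent cells, so that senescent replicate 3 alone lay among the controls. It was not called with all libraries (adjusted p = 0.195, edgeR; 95% interval from -0.37 to 0.07). Without senescent replicate 3, its log2 fold change was -0.26 with an adjusted p of 1.29e-05 (edgeR). *Hnrnpr* had a log2 fold change of -0.55, *Hnrnpk* of -0.32 and *Hnrnpll*, a regulator of exon skipping in lymphocytes, of -0.34. The call of *Hnrnpll* was lost without control replicate 1, senescent replicate 1 or senescent replicate 2 (adjusted p = 0.0533, 0.0675 and 0.0641, edgeR), and when libraries were scaled by their totals (0.0520). *Hnrnpk*, whose protein binds poly(C) stretches, was the second most abundant member by CPM in control libraries, at 588, 571 and 566 CPM, and was at 438, 445 and 494 CPM in senescent cells.

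Of the 11 SR genes, 8 were lower, 1 was higher and 2 were not called (34.1% of all genes tested were lower and 36.2% higher). *Srsf4*, *Srsf5*, *Srsf7* and *Srsf3* had log2 fold changes of -0.72, -0.64, -0.64 and -0.61, and *Srsf2*, *Srsf6* and *Srsf9* of -0.52, -0.49 and -0.47. *Srsf3* (ENSMUSG00000071172, chr17:29032673-29043366), the smallest SR protein, which also takes part in mRNA export, was at 235, 219.9 and 222 CPM in control and 141, 138 and 165 CPM in senescent cells. *Srsf7*, its closest relative, was at 125, 119 and 120.5 CPM in control and 75.8, 76.4 and 82.6 CPM in senescent cells. Both fell by a similar amount, and their ratio within a library was 1.84 to 1.88 in control and 1.80 to 1.99 in senescent cells.

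*Srsf1* (ENSMUSG00000018379, chr11:88047373-88053755), the founding SR protein and a known oncoprotein, was at 269, 254 and 267 CPM in control and 196, 199.6 and 258 CPM in senescent cells. Senescent replicate 3 lay within the control range. The log2 fold change was -0.27 ± 0.11 (SE; adjusted p = 0.0476, edgeR), so that the call rests near the threshold. It was -0.40 without senescent replicate 3 (adjusted p = 8.67e-08, edgeR), and was lost without any one of the other libraries, with adjusted p from 0.0739 to 0.151 (edgeR). *Srsf5* was at 356, 346 and 336 CPM in control and 214, 205 and 248 CPM in senescent cells, with no overlap. *Srsf4* and *Srsf9*, at 43.5 ± 3.19 and 46.9 ± 2.52 CPM (SD, n = 3) in control cells, were lowest in senescent replicate 3, at 22.1 and 29.96 CPM.

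*Srsf10* and *Srsf11* were not called. *Srsf10*, whose protein represses splicing when dephosphorylated, was at 120.1, 107 and 110.05 CPM in control and 107, 106 and 142 CPM in senescent cells (95% interval of the log2 fold change from -0.20 to 0.35). *Srsf11* was at 189, 184 and 187 CPM in control and 183, 179 and 226 CPM in senescent cells (interval from -0.14 to 0.29). In both genes senescent replicate 3 was the highest of the 6 libraries. *Srsf12* (ENSMUSG00000054679, chr4:33208991-33233340), a relative of *Srsf10*, was higher in senescent cells at a far lower level, with 1.28, 1.07 and 1.06 CPM in control and 2.60, 3.21 and 3.85 CPM in senescent cells. These values rest on 52 to 64 counts in control and 144 to 325 counts in senescent libraries. The log2 fold change was 1.51 ± 0.18 (SE) (adjusted p = 0.000144, edgeR).

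The Tra2 proteins resemble SR proteins and bind GAA-rich exons. *Tra2b* was at 125, 117 and 125 CPM in control and 70.8, 71.0 and 90.8 CPM in senescent cells, with a log2 fold change of -0.66 ± 0.10 (SE). *Tra2a* was at 114, 107 and 106 CPM in control and 89.0, 91.7 and 109.8 CPM in senescent cells, and was not called (adjusted p = 0.118, edgeR; 95% interval from -0.37 to 0.03). Without senescent replicate 3 it was lower as well, by -0.26 on the log2 scale (adjusted p = 3.60e-05, edgeR). The ratio of *Tra2a* to *Tra2b* was 0.851 to 0.915 in control and 1.21 to 1.29 in senescent libraries, with no overlap. Per exon length, *Tra2a* was above *Tra2b* in both groups, at 59.6 against 22.7 RPKM (CPM per 1000 bases of exon) in control and 53.0 against 14.4 RPKM in senescent cells.

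The Ptbp genes went in both directions. *Ptbp1* (ENSMUSG00000006498, chr10:79854427-79864771), the form of most dividing cells, was at 306, 335 and 333 CPM in control and 261, 274 and 195 CPM in senescent cells. Every senescent value was lower, and senescent replicate 3 was lowest. The log2 fold change was -0.42 ± 0.12 (SE) (adjusted p = 0.0162, edgeR). It was -0.27 without senescent replicate 3, where the call held (adjusted p = 3.48e-05, edgeR), and the call was lost without control replicate 2 or 3 (adjusted p = 0.0540 and 0.0530, edgeR). *Ptbp2* (ENSMUSG00000028134, chr3:119718742-119783388), the form known from neurons, whose transcript PTBP1 marks for decay by skipping an exon, was at 28.3, 28.0 and 27.3 CPM in control and 35.5, 36.5 and 44.5 CPM in senescent cells. All senescent values were higher, with a log2 fold change of 0.48 and a standard error of 0.09 (adjusted p = 0.00225, edgeR). *Ptbp2* has the lowest GC content of the members (34.2%), and with a term for GC content, chosen after seeing the data, its value was 0.17 (adjusted p = 0.0158, edgeR). Of the neuronal markers, *Tubb3* (11.3 to 21.2 CPM, means of control and senescent libraries), *Snap25* (0 to 0.303) and *Syt1* (0.0582 to 0.305) were higher, *Map2* was lower (26.3 to 8.11), and *Rbfox3* (0 to 0.120) was not tested. Their part in the value of *Ptbp2* was not tested. *Ptbp3* was at 120.4, 108 and 111 CPM in control and 62.1, 66.5 and 85.1 CPM in senescent cells, with a log2 fold change of -0.67 ± 0.12 (SE).

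Ratios of related genes within each library were compared for 16 pairs by an exact permutation test of 3 against 3 samples (two-sided), which cannot give a p below 0.1. In 11 pairs the ratios of the groups did not overlap, and each had p = 0.1 (0.145 after Benjamini-Hochberg adjustment over the 16 pairs) in this exact test, so none passed 0.05. Of single genes, 75.3% did not overlap between the groups, and the share among other pairs of genes was not computed. The ratio of *Ptbp1* to *Ptbp2* was 10.8, 12.0 and 12.2 in control and 7.35, 7.502 and 4.38 in senescent libraries. The ratio of *Srsf10* to *Srsf12* was 93.6 to 103.6 in control and 33.01 to 41.3 in senescent libraries. Within the hnRNP A group, the ratio of *Hnrnpa1* to *Hnrnpa2b1* was 0.574 to 0.582 in control and 0.462 to 0.490 in senescent libraries, and that of *Hnrnpa3* to *Hnrnpa2b1* was 0.459 to 0.464 in control and 0.593 to 0.599 in senescent libraries. These ratios varied little within a group, also for senescent replicate 3. Ratios of all pairs are of CPM, not scaled by exon length, and do not give the order of the genes. Per exon length, the mean of *Hnrnpa1* was above that of *Hnrnpa2b1* in control (269 and 218 RPKM) and close to it in senescent cells (123 and 121 RPKM). The remaining pairs without overlap were *Tra2a* with *Tra2b*, *Hnrnpd* with *Hnrnpdl*, *Hnrnpf* with *Hnrnph1*, *Hnrnph1* with *Hnrnph2*, *Hnrnpl* with *Hnrnpll*, *Hnrnpu* with *Hnrnpul1*, and *Hnrnpr* with *Syncrip*, its close relative outside the name rule. The ratios of *Ptbp1* to *Ptbp3*, *Srsf3* to *Srsf7*, *Srsf1* to *Srsf9*, and *Srsf4* to *Srsf5* and to *Srsf6* overlapped between groups, and in all 5 senescent replicate 3 lay outside the range of the other senescent and the control libraries.

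**Figure D4:**
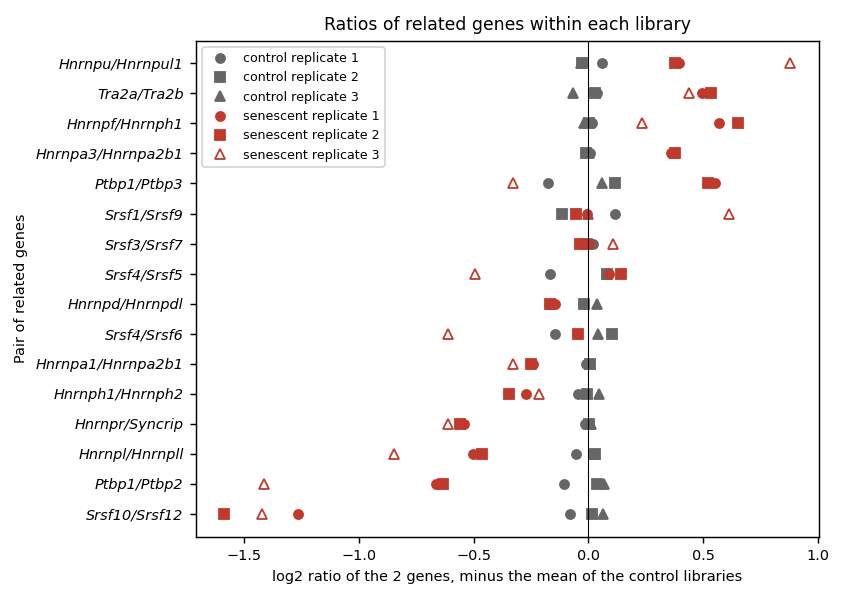
Log2 ratio of the CPM of paired related genes in each library, minus the mean of the control libraries (x axis), with symbols as in the plot of levels by library. The 3 senescent values lie apart from the 3 control values in 11 of the 16 pairs, and senescent replicate 3 stands away from the other senescent libraries in pairs such as *Srsf1* with *Srsf9* and *Ptbp1* with *Ptbp3*.

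Levels were compared between genes per exon length, as RPKM (CPM per 1000 bases of exon). In control cells the order began with *Hnrnpa1* (269 ± 6.55 RPKM), *Hnrnpa2b1* (218 ± 6.91), *Hnrnpab* (124 ± 2.11) and *Hnrnpk* (102 ± 2.02) (SD, n = 3), and the ranges of these neighbours did not overlap. In senescent cells the order of these 4 genes by mean was the same. However, *Hnrnpa1* (116 to 137 RPKM) and *Hnrnpa2b1* (112 to 139) overlapped, and *Hnrnpab*, at 108 to 116 RPKM, overlapped with *Hnrnpa2b1*. Behind them in control cells came *Srsf5*, at 84.2 to 89.4 RPKM, and *Hnrnpc*, at 82.3 to 88.4 RPKM, which overlapped. At the other end, *Srsf12* was at 0.362 RPKM in control and 1.02 RPKM in senescent cells, and no other member had a mean under 5 RPKM in either group.

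Features of annotation that the rule did not use were counted for the members. In GENCODE M21, 24 of the 36 genes (66.7%) have a transcript of the class nonsense-mediated decay, against 26.9% of the 14522 protein-coding genes tested and 31.7% of the 8301 of these whose mean count was 1000 or more. A transcript with a retained intron is annotated for 27 members (75.0%), against 55.3% and 65.8%. Members had a median of 8.5 annotated transcripts, against 5 and 6 in these 2 sets of protein-coding genes. Well studied genes can have more annotated transcripts. The counts per gene do not separate decay and retained-intron transcripts from those that encode the protein. Exons of 16 members overlap those of another gene, on the opposite strand in 13, and no source states the strand setting of the counting, so these values may hold reads of the other gene.

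Other lists of splicing genes held calls in both directions, except SR-related speckle proteins. Calls in both directions are common in these data. Of all genes tested, 34.1% were lower and 36.2% higher, and of those with a mean count of 1000 or more, 39.5% and 33.9%. Of 58 core spliceosome genes, 28 were lower and 8 were higher, with a median log2 fold change of -0.21. The number higher was 2 without control replicate 2 and 2 without control replicate 3. *Snrnp40* and *Snrpe*, which encode proteins of small nuclear ribonucleoproteins, fell, with log2 fold changes of -0.84 and -0.89, and *Usp39* and *Slu7* rose by 0.55 and 0.36. Of 9 SR-related proteins of nuclear speckles, 5 were lower and 0 were higher (median -0.23), among them *Thrap3* (-0.81) and *Acin1* (-0.63). The count of 0 held with DESeq2 and at an unadjusted p under 0.05 (0 with edgeR), and *Ppig* was called higher under 4 alternatives.

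Among kinases that phosphorylate SR proteins and the importers that carry them to the nucleus, 3 of 10 tested genes were lower and 1 was higher, with a median of -0.01. The kinase gene *Clk1* fell from 150 ± 6.04 to 92.0 ± 16.0 CPM and *Clk2* from 43.0 ± 1.32 to 30.9 ± 2.76 CPM (SD, n = 3 per group), and *Srpk2* rose from 63.3 ± 2.41 to 80.2 ± 7.51 CPM. For *Srpk1* the log2 fold change was -0.03 ± 0.05 (SE). Of 39 tested genes of other splicing regulators, 18 were lower and 11 higher (median -0.14). Past the 2-fold limit, 1 was lower and 6 were higher (12.3% and 17.8% of all genes tested). *Nono* and *Ewsr1* fell, with log2 fold changes of -0.87 and -0.73. *Celf4* rose from 5.15 ± 0.553 to 20.4 ± 2.23 CPM, and *Rbm24*, a regulator of muscle exons, was at no more than 0.0167 CPM in any control library and between 0.328 and 0.450 CPM in senescent libraries. Of 15 genes of nonsense-mediated decay, 6 were lower and 3 higher (median 0.02). Beside the counts of these 3 lists, 34.1% of all genes tested were lower and 36.2% higher. *Eif4a3* and *Magoh* of the exon junction complex fell, with log2 fold changes of -0.51 and -0.33, and *Smg8* and *Upf2* rose by 0.45 and 0.41 on the log2 scale. Their summed level was 955 to 958 CPM in control and 928 to 961 CPM in senescent libraries, which overlapped.

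**Figure D5:**
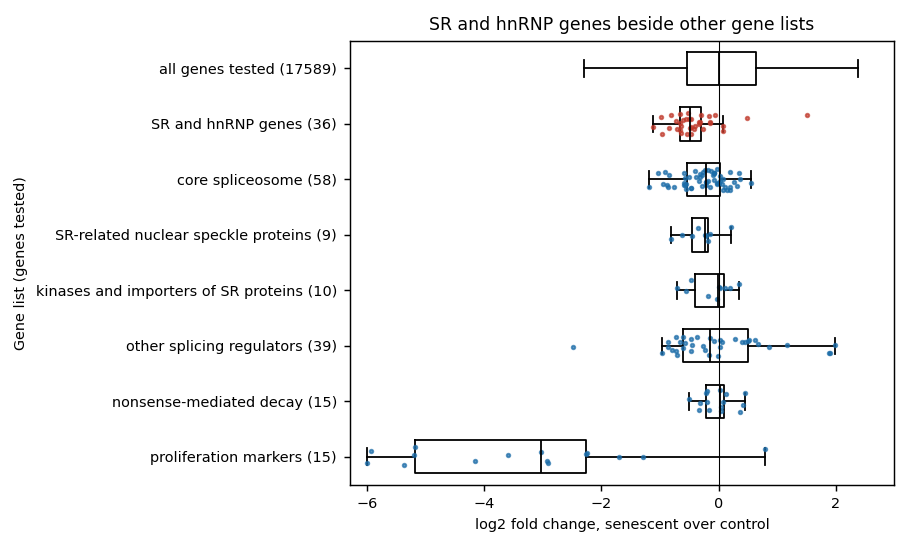
Log2 fold change in senescent over control MAFs (x axis) of the 36 SR and hnRNP genes (red) and of 6 other gene lists (blue), with boxes for the median and quartiles and whiskers to 1.5 times the box. The box of all 17589 genes tested is given without points, and 2 points of other splicing regulators lie beyond the axis limit of 3. The median of SR and hnRNP genes (-0.49) lies below those of the splicing lists and far above that of the proliferation markers (-3.03).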

How the data were processed

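Stranded mRNA libraries were sequenced with paired-end reads. The authors aligned the reads (STAR, mm10) and deposited a table of raw counts per gene from Subread, run within MAPRSeq, with exon lengths. All 6 libraries were used, with groups and replicate numbers from the labels. Genes were kept by filterByExpr (17589 of 43346), scaled by TMM and compared with edgeR's robust quasi-likelihood test (edgeR 4.0.16, R 4.3.3), with group as the only term. P-values are two-sided and adjusted by Benjamini-Hochberg over all genes tested. Standard errors were derived from the coefficient and its F value. CPM and RPKM were computed here from the deposited counts. Coordinates are those of the deposited table, and GC content and transcript classes come from GENCODE M21 (GRCm38, which mm10 names).

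Members and gene lists were chosen with earlier results of these data known. Every member is named. Values per library are given for the 5 called members with the largest change in each direction (mean of at least 100 counts), for the Ptbp genes and, beyond that rule, for members chosen after their values were seen. From the other lists the 2 genes with the smallest p in each direction are named, and *Srpk1*, *Syncrip*, *Ppig* and named markers of fibroblasts and neurons were added after their values were seen. Alternatives were RLE scaling, library size alone, no filter, a filter of 10 counts in every library, DESeq2 1.42.0, a replicate term, and each library left out. A term for GC content was added after seeing the data. Planned protein features were not computed here. Methods were tested on simulated data. No source names molecular identifiers, so depth describes counting error alone.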

Additional observations from a re-analysis of the deposited data

How the results depend on the processing

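The number of lower members was 26 to 32 over 13 alternatives (29 in the analysis reported), 2 members were higher in each, and 2 or 3 were past the 2-fold limit. The share of all genes tested moved as well, from 20.3% lower and 25.9% higher with no filter to 37.8% and 40.0% with the GC term. Leaving out 1 library gave 26 to 32 lower members, with 32 only without senescent replicate 3, and 2 to 3 past 2-fold. In these fits 29.4% (without control replicate 3) to 37.4% (without senescent replicate 3) of all genes tested were lower. The additional gene past 2-fold was *Hnrnpm* without senescent replicate 3 and *Hnrnph1* with the GC term (-1.09). In 27 members both the call and the sign held under every alternative. *Srsf1* and *Hnrnpab* lost their calls with RLE scaling, library size alone, the filter of 10 counts and DESeq2. *Hnrnpll* lost its call with library size alone and without control replicate 1, senescent replicate 1 or senescent replicate 2. Signs turned in 3 members, none of them called in the analysis reported. *Hnrnpa0*, at -0.07 in the analysis reported, turned to 0.0098 with library size alone and 0.16 with the GC term. It turned to 0.046 and 0.017 without senescent replicate 1 and 2, and kept its sign without senescent replicate 3 (-0.27). *Srsf10* and *Srsf11* had -0.13 and -0.033 with the GC term (adjusted p = 0.0222 and 0.481, edgeR) and -0.071 and -0.038 without senescent replicate 3. The cause was not tested. With the GC term, 32 members were lower (37.8% of all genes tested). Deviations of same-numbered libraries correlated at -0.15, 0.14 and -0.12, and those of differently numbered libraries at -0.21 to 0.26. Senescent replicate 3 stood apart from its group, so this check cannot tell whether libraries shared a culture or an animal. With the replicate block, 28 members were lower, 2 higher and 2 past 2-fold, and *Hnrnpab* alone lost its call (adjusted p = 0.107, edgeR). Of all genes tested, 32.2% were lower and 33.9% higher with this block.

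In the other lists, core spliceosome genes called higher were 5 with no filter, 4 with the replicate block and 2 without control replicate 2 or 3, against 8. Kinases and importers called lower were 5 with the GC term (against 3), and those called higher were 3 with library size alone (against 1). Of genes of nonsense-mediated decay, 3 were lower with library size alone (against 6), and 5 were higher with the GC term and without senescent replicate 3 (against 3). Of speckle proteins, 1 was higher with the filter of 10 counts, with library size alone and without senescent replicate 2 or 3. Among the members, *Srsf12* rests on the fewest counts.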
